A study of Mus musculus with 3 samples.

Results

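The alarmins Tslp and Il33, the type 2 cytokines Il4 and Il13, and the receptor genes Crlf2, Il7r, Il1rl1, Il4ra and Il13ra1 were followed by cell class in dissociated mouse 4T1 mammary tumours. They are 9 of the 55357 genes in each matrix, were matched by symbol, and all 9 were found in both libraries. They were chosen by their known UMI levels by class in these same libraries, so their levels are given as a description, with no test. The study asked how the cell makeup of 4T1 tumours changes when the tumour cells lose Cpt1a, an enzyme that admits fatty acids to mitochondria for oxidation. One group carried tumours of the line 4T1-sgVC, labelled wild type, and the other tumours of 4T1-sgCPT1A, labelled as a CPT1A knockdown. All hosts were female mice aged 8-10 weeks, kept for 8 days with their tumours, and whole digested tumour tissue was loaded without a sort on 10x 3′ chemistry. Each group had 1 library with a matrix, and a further sgCPT1A sample was not analysed here; whether its reads were merged into the sgCPT1A matrix is not known. Guide RNA, host, tumour, digestion and depth therefore cannot be told apart, and no difference between the libraries has a replicate check.

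Alarmins are released by epithelial and stromal cells under stress or injury. TSLP binds a receptor made of CRLF2 and the IL-7 receptor alpha chain, and IL-33 binds ST2, the product of Il1rl1, with the accessory chain IL1RAP. Both act on dendritic cells, mast cells, basophils, group 2 innate lymphoid cells and T helper type 2 cells. Those lymphocytes and granulocytes make IL-4 and IL-13, which signal through IL4RA paired with the common gamma chain or with IL13RA1, mainly to STAT6 in macrophages, fibroblasts and epithelium.

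The sgVC matrix held 9890 barcodes with a median of 10809 UMIs (unique molecular identifiers, each a counted transcript molecule), and the sgCPT1A matrix 7198 barcodes with a median of 2786. After filters on genes and mitochondrial counts, and removal of called doublets in sgVC, 9319 and 6743 cells were kept; 18 barcodes were present in both libraries. The doublet caller marked 3.03% of sgVC cells but 0.0148% of sgCPT1A cells, so no doublet was removed from sgCPT1A. Tumour-like cells were 48.0% of the sgVC cells and 0.682% of the sgCPT1A cells, and neutrophil-like cells 19.3% and 76.0%. The targeted gene, Cpt1a, had 2112 UMIs in 4471 sgVC tumour-like cells and 22 UMIs in 46 sgCPT1A tumour-like cells, or 17.4 and 28.4 CPM (UMIs of a gene per 1000000 UMIs of the class in that library). All but 1 of those 22 UMIs lay in a small Krt19-high subcluster described below, and since a 3′ count may lie outside the altered stretch of the gene, the counts check neither label. Levels are given as CPM, with 95% intervals that cover counting error only. Where a pair of values stands together, sgVC comes first.

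Tslp, an epithelial alarmin, was a transcript of the tumour-like cells in sgVC. They held 119070 of its 119770 UMIs, or 99.4%, at 979 CPM (974 to 985), and 4072 of 4471 cells, 91.1%, carried at least 1 Tslp UMI. Neutrophil-like cells of the same library, which should lack the gene, showed it in 3.23% of cells, at a median depth of 1460 UMIs against 23607 in tumour-like cells. With every cell thinned to 1000 UMIs the shares were 46.6% of 4425 tumour-like cells and 2.05% of 1466 neutrophil-like cells (46 and 331 shallower cells left out), so the tumour-like level lay far above that background. The sgCPT1A library held 239 Tslp UMIs in all its kept cells. Its 46 tumour-like cells had 20 of them, 25.8 CPM (15.8 to 39.8), in 3 cells, and 15 of the 20 came from a single dividing cell. After thinning to 1000 UMIs no sgCPT1A tumour-like cell of 39 had a Tslp UMI, for which the exact upper limit is 9.03%; it limits detection at that depth and not expression, since the unthinned share was 6.52% (1.37 to 17.9).

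Within the sgVC tumour-like cells the Tslp level varied several-fold. After thinning to 10000 UMIs, the 4037 deep enough cells had a median of 6 Tslp UMIs, a 90th percentile of 27 and a highest value of 139. The subcluster led by Ccn5 and Hsd11b1 stood highest at 1407 CPM, followed by the subcluster led by the hypoxia-associated genes Ndrg1, Adm, Car9 and Slc2a1 at 1130 CPM. Dividing cells stood at 669 CPM. At the matched 10000 UMIs the Ccn5-led cells had a median of 9 Tslp UMIs with 91.5% of cells positive, the dividing cells a median of 4 with 84.6%, and the hypoxia-associated cells a median of 5 with 80.8%. Most cells of each of these subclusters thus held the transcript. A small subcluster of 12 sgVC and 27 sgCPT1A cells, led by Ptn, Krt19, Wfdc18 and Prlr, had no Tslp UMI in either library, where 3 counts would have been 19.5 and 4.66 CPM. It made up most of the sgCPT1A tumour-like class. A further 12 sgCPT1A cells of the class lay in a subcluster led by the T cell genes Cd3g and Trbc2. Another 2 lay in one led by the neutrophil gene S100a9, so few were left in the remaining tumour-like subclusters. The class also differs between libraries in its markers: the epithelial adhesion gene Epcam had a UMI in 0.291% of sgVC but 63.0% of sgCPT1A tumour-like cells. Whether those Krt19-high cells descend from the injected line was not tested, and no ratio between the libraries is given for the tumour-like class, since sgCPT1A has only 46 of its cells.

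**Figure D1:**
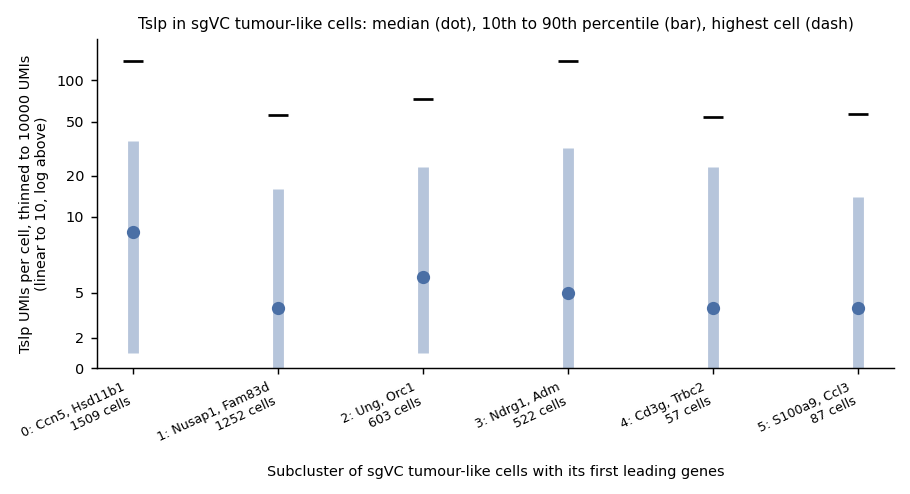
Tslp in sgVC tumour-like cells. The median, the 10th to 90th percentile and the highest cell of Tslp UMIs are shown by tumour-like subcluster, with each cell thinned to 10000 UMIs. The subcluster led by Ccn5 and Hsd11b1 has the highest median (9 UMIs), and the Krt19-high subcluster is not drawn.

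Outside the tumour-like cells Tslp was low, and in sgCPT1A the fibroblast-like cells held most of what remained. In sgVC the order was pericyte or smooth muscle-like cells at 105.8 CPM (83.6 to 132), fibroblast-like cells at 38.8 (34.0 to 44.1), monocyte/macrophage-like cells at 26.1, neutrophil-like cells at 25.9 and T-like cells at 13.4. The monocyte/macrophage-like and neutrophil-like levels lay within each other's counting intervals. In sgCPT1A the order was pericyte or smooth muscle-like at 21.1 CPM (27 UMIs in 11 of 73 cells), fibroblast-like at 15.01 (12.9 to 17.3; 186 UMIs in 86 of 513 cells), then monocyte/macrophage-like at 0.407 (1 UMI) and neutrophil-like at 0.365 (5 UMIs), which the counts do not separate, with 0 UMIs in T-like cells. The fibroblast-like cells alone made up 77.8% of the Tslp UMIs of that library. Dendritic-like and NK-like cells had 4 and 2 Tslp UMIs in sgVC and 0 in sgCPT1A, and B-like and basophil or mast cell-like cells had 0 in both.

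Tumour transcripts moved with these low levels. In sgVC the Tslp level of neutrophil-like cells was 2.64% of that of tumour-like cells, and 4 abundant tumour markers stood there at a median of 2.23% (1.41 to 10.7) of theirs. For monocyte/macrophage-like cells the figures were 2.67% for Tslp and 1.89% for the markers, for T-like cells 1.37% and 1.55%, for fibroblast-like cells 3.96% and 5.83%, and for pericyte or smooth muscle-like cells 10.8% and 12.8%. Tslp in these sgVC classes was thus close to the share at which other tumour transcripts were found there. In sgCPT1A the fibroblast-like Tslp level was 58.2% of the tumour-like level, against a marker median of 0.130%, and in pericyte or smooth muscle-like cells 81.7% against 0. These sgCPT1A markers cannot serve as a background for Tslp. The Krt19-high subcluster, 27 of the 46 sgCPT1A tumour-like cells, had no Tslp UMI, and the 20 Tslp UMIs of the class lay in 3 other cells. Markers and Tslp need not share a source there, so nothing is read from that contrast. The tumour marker list of 9 genes summed to 217 CPM in sgVC and 22.0 CPM in sgCPT1A fibroblast-like cells, with Cldn7 at 0 in sgVC and no marker at 0 in sgCPT1A. In neutrophil-like cells the same list summed to 101 and 19.4 CPM and in monocyte/macrophage-like cells to 93.1 and 17.1 CPM.

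Fibroblast-like Tslp was 2.58-fold lower in sgCPT1A than in sgVC, a log2 ratio of sgCPT1A over sgVC of -1.37 (-1.65 to -1.08), but that difference turned with the subclusters. In the subcluster led by Dmkn, Galnt6 and Bmp3 Tslp stood at 37.7 CPM in sgVC (16 UMIs, 24.5% of 49 cells) and 47.3 CPM in sgCPT1A (110 UMIs in 38 of 95 cells, highest cell 35). Those sgCPT1A cells held more than any other fibroblast-like subcluster of the library. In the dividing subcluster, whose leading genes include the tumour marker genes Wfdc2 and Krt18, Tslp stood at 149.7 CPM in 38 sgVC cells (146 UMIs) and 21.5 CPM in 18 sgCPT1A cells. That subcluster gave 146 of the 233 sgVC Tslp UMIs of the class. Over the subclusters with at least 20 cells in each library, an alternative chosen after seeing the data, the log2 ratio was 0.39. With doublets kept in sgVC it was -2.97, so neither the sign nor the size of this ratio is firm. The part of tumour RNA in it was not tested beyond these values.

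In monocyte/macrophage-like cells 188 of the 266 sgVC Tslp UMIs lay in 31 cells of the subcluster led by Gas6, Pmp22, Tslp and Cd163 (84.2 CPM, highest cell 43 UMIs), and the other subclusters stood at 5.58 to 34.1 CPM. The log2 ratio was -6.01 (-11.3 to -3.52) in this class, -6.15 (-7.81 to -4.86) in neutrophil-like cells and -2.33 (-3.02 to -1.68) in pericyte or smooth muscle-like cells. The latter class also carried endothelial genes: its 6 endothelial markers summed to 2012 CPM in sgVC and 415 CPM in sgCPT1A. In T-like cells the 45 sgVC UMIs stood against 0 in sgCPT1A, where 3 counts would have been 0.899 CPM. In every class compared, the sgVC value was the higher.

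Il33, the nuclear alarmin that stromal cells store, was a transcript of fibroblast-like cells in both libraries. These cells held 83.0% and 91.6% of the Il33 UMIs, at 397 CPM (381 to 413; 2385 UMIs in 258 of 400 cells) in sgVC and 273 CPM (264 to 282; 3381 UMIs in 335 of 513 cells) in sgCPT1A. The share of fibroblast-like cells with an Il33 UMI was 64.5% in sgVC at a median depth of 14586 UMIs and 65.3% in sgCPT1A at 24739, and after thinning to 1000 UMIs 23.3% and 16.6%. The log2 ratio was -0.54 (-0.62 to -0.46), below a 2-fold difference. The level was lower in sgCPT1A in 7 of the 8 fibroblast-like subclusters, the exception being the subcluster led by the neutrophil gene S100a9, with 176 CPM in 3 sgVC cells and 271 CPM in 34 sgCPT1A cells. It was highest in the Reg1- and H2-Aa-led subcluster, at 672 and 453 CPM with a UMI in 93.5% and 95.3% of cells. It was lowest in the subcluster led by U90926 and Capn6, at 126 and 74.7 CPM. Il33 thus marked most fibroblast-like cells and varied several-fold among them.

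A second, small source of Il33 lay in the tumour-like class. The Krt19-high subcluster stood at 495 CPM in sgVC (76 UMIs, 6 of 12 cells, highest cell 30) and 402 CPM in sgCPT1A (259 UMIs, 14 of 27 cells, highest cell 66), while the other sgVC tumour-like subclusters stood at 1.50 to 4.05 CPM. In sgCPT1A that subcluster held all 259 Il33 UMIs of the class. The tumour-like subcluster with the highest Il33 level was therefore the one with no Tslp UMI. The 2 transcripts were not exclusive in sgVC, where that subcluster held 76 of the 467 Il33 UMIs of the class. Of the 186 sgVC tumour-like cells with an Il33 UMI, 171 also had a Tslp UMI. In all remaining classes Il33 was at or under 13.3 CPM. Tslp and Il33 were found in the same cell in 47 of 400 sgVC (11.8%) and 69 of 513 sgCPT1A fibroblast-like cells (13.5%), and in 171 of 4471 sgVC tumour-like cells (3.83%).

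**Figure D2:**
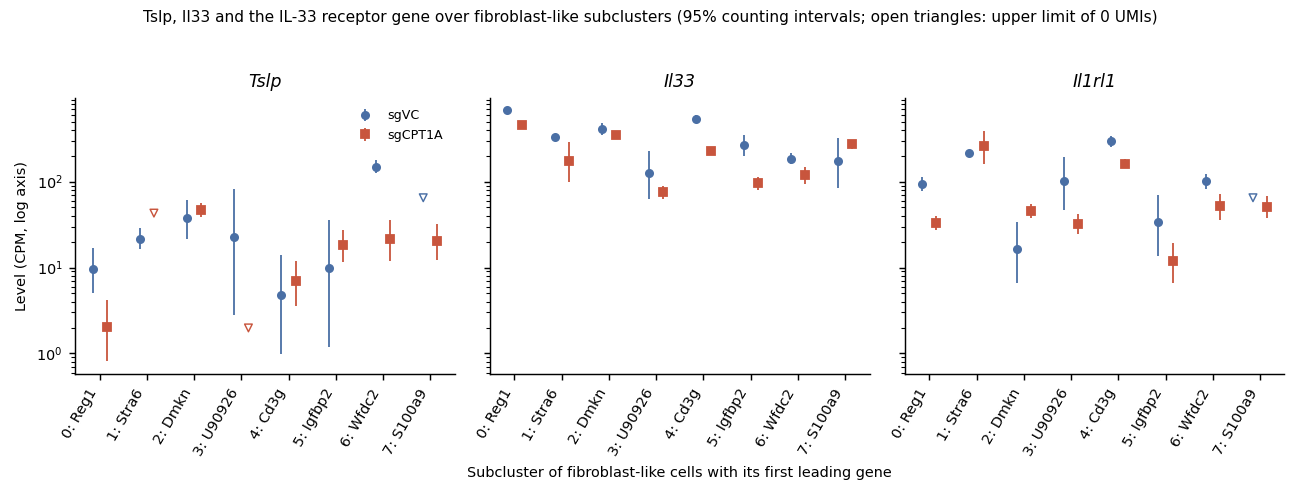
Tslp and Il33 in fibroblast-like subclusters of sgVC and sgCPT1A, as CPM with 95% counting intervals. Il33 is highest in the Reg1- and H2-Aa-led subcluster (672 and 453 CPM), and sgVC Tslp is highest in the dividing subcluster (149.7 CPM).

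Il4, the cytokine that drives T helper type 2 differentiation and IgE switching, was concentrated in the few basophil or mast cell-like cells. They numbered 35 in sgVC and 12 in sgCPT1A, 0.376% and 0.178% of cells, and had none of their 10 markers at 0. Il4 stood there at 3128 CPM (2753 to 3541; 250 UMIs in 22 cells, highest 108) in sgVC and 2815 CPM (2295 to 3417; 102 UMIs in 8 cells, highest 71) in sgCPT1A, and these cells gave 67.0% and 42.5% of each library's Il4 UMIs. Which cells the class holds moved these values: with classes from each cell's own markers the sgVC level was 1636 CPM and the share 31.4%, and with at most 10% mitochondrial counts the level was 643.6 CPM at a share of 65.4%. The intervals of the libraries' levels overlapped. T-like cells came next with 30.3 CPM (24.7 to 36.8; 102 UMIs in 26 of 859 cells, highest 39) and 40.5 CPM (33.9 to 47.9; 135 UMIs in 21 of 551 cells, highest 81), a log2 ratio of 0.42 (0.03 to 0.80). A single CD4-like sgCPT1A cell gave 81 of those 135 UMIs, and a single sgVC cell of the subcluster led by neutrophil genes gave 39 of the 102. CD8-like and γδ T-like cells had no Il4 UMI in either library.

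Split by their own markers, the basophil or mast cell-like cells differed in Il4. Cells with more basophil than mast cell markers, 27 in sgVC and 7 in sgCPT1A, held 244 and 100 Il4 UMIs, or 3700 and 4131 CPM. Cells with more mast cell markers, 3 and 4, held 0 and 2 Il4 UMIs. Il13 followed, with 114 and 13 UMIs in the cells richer in basophil markers and no more than 1 in those richer in mast cell markers.

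Il13, which acts on epithelium, macrophages and fibroblasts, was mostly a T-like cell transcript. T-like cells held 78.7% and 89.4% of its UMIs, at 157 CPM (144 to 171; 527 UMIs in 57 of 859 cells, highest 115) in sgVC and 45.5 CPM (38.6 to 53.4; 152 UMIs in 29 of 551 cells, highest 63) in sgCPT1A. The level was 3.44-fold lower in sgCPT1A, a log2 ratio of -1.78 (-2.05 to -1.52). The share of cells with a UMI was 6.64% and 5.26%, and 3.32% and 2.51% after thinning to 1000 UMIs. The mean UMIs per positive cell thus differed more than the share of positive cells did, while the median per positive cell was 2 in both libraries. The 5 cells with most Il13 gave 54.7% and 71.7% of the T-like total, and the highest sgVC cell, with 115 UMIs, lay in the subcluster led by neutrophil genes. Without the subclusters led by another class's markers the log2 ratio was -1.28, and over subclusters with at least 20 cells in each library -1.08, both chosen after seeing the data. It was also -1.08 with doublets kept in sgVC and -1.34 with cells weighted equally. The neutrophil markers, 8 genes, summed to 312 CPM in sgVC and 2385 CPM in sgCPT1A T-like cells, and the 10 basophil or mast cell markers to 3.87 and 1.80 CPM, with 6 and 8 of them at 0.

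Among T-like subclusters, CD4-like cells gave most Il13, with 358 CPM in sgVC (230 UMIs, 25 of 161 cells, 15.5%) and 135 CPM in sgCPT1A (119 UMIs, 18 of 146 cells, 12.3%). Il13 is itself among the genes that lead this subcluster, although it was left out of the clustering. Dividing T-like cells followed at 107 and 40.1 CPM. The ILC2-like subcluster, named from markers of group 2 innate lymphoid cells, had 1127 CPM in sgVC (68 UMIs in 7 of 19 cells) and no UMI in its 12 sgCPT1A cells, where 3 counts would have been 58.2 CPM. The regulatory T-like and γδ T-like subclusters had no Il13 UMI in either library, and CD8-like cells had 1 and 0. Basophil or mast cell-like cells held 1439 CPM (1188 to 1727; 115 UMIs in 18 of 35 cells) in sgVC and 386 CPM (211 to 648; 14 UMIs in 5 of 12 cells) in sgCPT1A. The lower sgCPT1A value therefore recurred in CD4-like, dividing, ILC2-like and basophil or mast cell-like cells, although each rests on few cells.

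Il13-positive T-like cells carried Cd4 in 73.7% of sgVC and 89.7% of sgCPT1A cells, against 31.3% and 47.7% of cells without Il13. They carried Gata3, the type 2 lineage factor, in 68.4% and 72.4%, against 29.8% and 51.5%, and Cd8a in 1.75% and 0%, against 21.7% and 12.6%. Foxp3, the factor of regulatory T cells, was found in 0% and 6.90% of them, the latter 2 of 29 cells, against 7.36% and 5.17%. Ifng, the type 1 cytokine, was found in 47.4% and 62.1% of them, against 42.5% and 49.2%. The positive cells were thus largely CD4-bearing, and many also held Ifng. They were also deeper, with median depths of 6507 and 8466 UMIs against 2715.5 and 4830.5, and such shares rise with depth; how far depth sets these differences was not tested. Both cytokines were found together in 10 of 26 sgVC and 6 of 21 sgCPT1A Il4-positive T-like cells, and in 13 of 22 and 4 of 8 Il4-positive basophil or mast cell-like cells. Counted from Il13, that was 10 of 57 and 6 of 29 Il13-positive T-like cells, so most of those had no Il4 UMI.

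**Figure D3:**
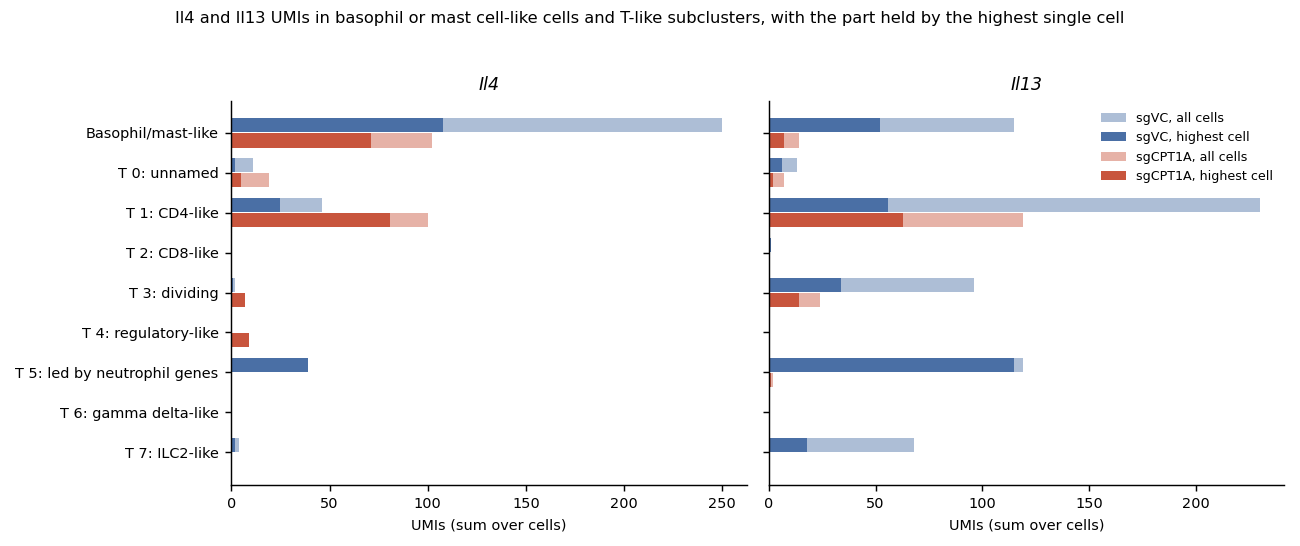
Il4 and Il13 UMIs summed over the basophil or mast cell-like cells and over each T-like subcluster of sgVC and sgCPT1A, with the part held by the highest single cell. A few cells hold most UMIs: the highest T-like cells have 39 and 81 Il4 UMIs and 115 and 63 Il13 UMIs.

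Il4 and Il13 lie side by side on chromosome 11, on the minus strand of GRCm38 at chr11:53602982-53618669 and chr11:53631324-53634702, with 12654 bases between them. Their promoters come from the RefSeq table for GRCm38.p6 (250 bases before to 50 after each start). They are printed because both genes had their highest class level in basophil or mast cell-like cells, and GATA3 and STAT6 are known to act at this locus. That table matched 8 of the 9 genes, in 11 windows, and Tslp was not among them. Capitals mark matches, on either strand, to the GATA motifs AGATAA and TGATAA or the STAT6-type motif (TTC and GAA with 4 bases of any kind between them); the AP-1 motif TGANTCA was also searched and is in neither window.
Il4 chr11:53618616-53618915 minus strand: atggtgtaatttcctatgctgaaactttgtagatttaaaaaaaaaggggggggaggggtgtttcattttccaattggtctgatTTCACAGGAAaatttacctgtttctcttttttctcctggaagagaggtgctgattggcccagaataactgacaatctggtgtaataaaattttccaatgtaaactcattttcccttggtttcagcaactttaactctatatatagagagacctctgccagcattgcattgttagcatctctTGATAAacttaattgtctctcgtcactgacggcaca
Il13 chr11:53634653-53634952 minus strand: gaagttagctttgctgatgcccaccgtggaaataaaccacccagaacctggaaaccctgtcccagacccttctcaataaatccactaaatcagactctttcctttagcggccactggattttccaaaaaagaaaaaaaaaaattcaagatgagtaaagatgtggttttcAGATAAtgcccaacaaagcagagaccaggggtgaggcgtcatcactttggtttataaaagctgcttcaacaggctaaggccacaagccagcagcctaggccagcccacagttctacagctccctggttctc

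The Il13 window has AGATAA beginning 81 bases before the start. The printed Il4 window has the STAT6-type motif 167 bases before the start and TGATAA 14 bases after it. A second Il4 window, chr11:53617289-53617588, is not printed and had no match to any motif searched. Of the 32851 promoters in the table, 11.2% held AGATAA, 9.05% TGATAA, 18.6% either, 6.95% the STAT6-type motif and 7.81% the AP-1 motif, and the motifs do not overlap in these windows. A match describes the letters and shows no binding.

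Il1rl1, the IL-33 receptor gene, was found in the fibroblast-like cells that hold Il33 and, at higher levels, in basophil or mast cell-like cells. In fibroblast-like cells it stood at 155 CPM (145 to 165; 930 UMIs in 151 of 400 cells, highest 94) in sgVC and 55.1 CPM (51.0 to 59.4; 682 UMIs in 159 of 513 cells, highest 75) in sgCPT1A. That is 2.81-fold lower in sgCPT1A, a log2 ratio of -1.49 (-1.64 to -1.35), and the share of positive cells was 37.8% and 31.0%, or 12.0% and 3.96% after thinning. The subcluster led by Stra6, Spp1, Mmp10 and Stc1, with 151 sgVC but 5 sgCPT1A cells, gave 508 of the 930 sgVC UMIs at 213 CPM, and 22 UMIs at 256 CPM in sgCPT1A. The class ratio therefore includes a shift in subclusters. Within the Reg1- and H2-Aa-led subcluster the levels were 93.4 and 32.9 CPM, but in the Dmkn-led subcluster they were 16.5 and 45.6 CPM. Il33 and Il1rl1 were found in the same cell in 105 of 400 sgVC (26.3%) and 113 of 513 sgCPT1A (22.0%) fibroblast-like cells.

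Basophil or mast cell-like cells held Il1rl1 at 463 CPM (326 to 638; 18 of 35 cells) and 994 CPM (696 to 1375; 8 of 12 cells). The sgCPT1A class had a larger part of mast cell marker-rich cells, whose Il1rl1 level was 1023 and 2231 CPM, against 409 and 496 CPM in cells richer in basophil markers. T-like cells stood at 52.0 and 40.8 CPM, with a UMI in 12.5% and 12.7% of cells and a log2 ratio of -0.35 (-0.69 to -0.02) that changed sign under alternatives given in the closing section. Among them regulatory T-like cells stood at 209 and 57.8 CPM, ILC2-like cells at 331 and 427, and CD8-like cells at 2.69 and 8.00. In T-like cells, then, the regulatory and ILC2-like subsets, in both of which ST2 is known, held the highest levels. The accessory chain Il1rap was found with Il1rl1 in 21.0% and 19.9% of fibroblast-like cells and in 0.699% and 1.45% of T-like cells. In basophil or mast cell-like cells Il1rap had a UMI in 0 of 35 and 0 of 12 cells, with exact upper limits of 10% and 26.5% on the share of cells with a UMI at median depths of 2184 and 2154.5 UMIs, which does not limit expression.

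The mouse Il1rl1 gene, at chr1:40429570-40465415 on the plus strand of GRCm38, has a distal start known from mast and T helper type 2 cells and a proximal start known from fibroblasts. Both windows are printed because both kinds of cell held the transcript here, with capitals marking the GATA motifs as above. The 3′ counts separate neither the starts nor the soluble from the membrane form.
Il1rl1 distal chr1:40429320-40429619 plus strand: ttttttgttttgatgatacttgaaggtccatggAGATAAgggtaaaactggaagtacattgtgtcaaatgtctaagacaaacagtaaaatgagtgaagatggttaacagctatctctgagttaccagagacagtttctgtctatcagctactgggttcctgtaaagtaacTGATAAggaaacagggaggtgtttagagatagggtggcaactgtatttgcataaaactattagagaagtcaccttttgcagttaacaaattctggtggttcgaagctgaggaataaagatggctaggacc
Il1rl1 proximal chr1:40439379-40439678 plus strand: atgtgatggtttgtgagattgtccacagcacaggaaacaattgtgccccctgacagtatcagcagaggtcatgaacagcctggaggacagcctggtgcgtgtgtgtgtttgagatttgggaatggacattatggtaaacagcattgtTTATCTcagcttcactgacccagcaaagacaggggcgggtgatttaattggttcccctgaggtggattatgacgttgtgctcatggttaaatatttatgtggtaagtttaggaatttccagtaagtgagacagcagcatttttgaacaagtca

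The distal window has AGATAA 217 and TGATAA 80 bases before its start, and the proximal window has AGATAA on the other strand 103 bases before its start.

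Crlf2, the TSLP-specific receptor chain (chr5:109554709-109558993, minus strand), was spread over all 10 classes. Its level was highest in basophil or mast cell-like cells, at 200.2 and 165.6 CPM from 16 and 6 UMIs, and lowest in sgVC in tumour-like cells, at 18.5 CPM. Because of their number and depth those tumour-like cells still gave 59.2% of the sgVC Crlf2 UMIs, 2255 of 3807, and 35.9% of them carried a UMI. T-like cells stood at 83.0 and 87.5 CPM, monocyte/macrophage-like cells at 69.4 and 101, neutrophil-like cells at 69.3 and 83.2, and fibroblast-like cells at 35.9 and 32.3. Monocyte/macrophage-like cells had a log2 ratio of 0.55 (0.33 to 0.76) and neutrophil-like cells 0.26 (0.04 to 0.49), with values of 0.08 in T-like and -0.15 in fibroblast-like cells. In sgVC the neutrophil-like and monocyte/macrophage-like levels did not differ beyond their counting error. Within classes cDC2-like cells stood at 136 CPM in both libraries, regulatory T-like cells at 139 and 198, and ILC2-like cells at 298 and 38.8.

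Il7r, the shared chain of the TSLP and IL-7 receptors (chr15:9505788-9530176, minus strand), was held mostly by T-like cells, with 41.7% and 66.5% of its UMIs, and monocyte/macrophage-like cells, with 43.1% and 21.3%. In tumour-like cells it stood at 0.387 and 2.58 CPM. T-like cells stood at 212 CPM with 40.1% positive in sgVC and 310 CPM with 56.6% positive in sgCPT1A, a log2 ratio of 0.55 (0.41 to 0.69), and at 21.8% and 26.3% positive after thinning. The γδ T-like cells stood highest in sgVC at 818 and 561 CPM, ahead of ILC2-like cells at 530 and 679, and CD8-like cells stood at 129 and 243. The monocyte/macrophage-like level was 72.4 and 135 CPM, with a log2 ratio of 0.90 (0.71 to 1.09) that ran from 0.30 to 1.47 over the alternatives. There the subcluster led by Cd200, Ctsk, Cxcl3 and Ptges stood at 319 and 238 CPM, and it made up 198 of 1466 sgVC but 129 of 326 sgCPT1A cells of the class. Within that subcluster, then, the sgCPT1A level was the lower. Dendritic-like cells stood at 122 and 173 CPM. Crlf2 and Il7r, which together form the TSLP receptor, were found in the same cell in 11.1% and 20.15% of T-like cells, 7.78% and 12.6% of monocyte/macrophage-like cells, 11.9% and 26.3% of dendritic-like cells, and 2 cells of each library's basophil or mast cell-like class. These shares rise with depth, and the T-like median depth was 2863 and 4918 UMIs.

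Il4ra, the signalling chain for both cytokines (chr7:125552120-125579474, plus strand), was found across stroma and myeloid cells. Fibroblast-like cells had the highest level of any class, 252 CPM with 78.0% positive in sgVC and 183 CPM with 75.8% positive in sgCPT1A, a log2 ratio of -0.46 (-0.56 to -0.37). The level was 166 CPM in monocyte/macrophage-like cells of both libraries, with an interval for the log2 ratio of -0.16 to 0.16. Within them the subcluster led by Gas6 and Cd163, genes of resident-type macrophages, stood at 298 and 361 CPM. Neutrophil-like cells stood at 137 and 81.3 CPM, a log2 ratio of -0.76 (-0.92 to -0.58), while the median gene of that class stood at -0.30. Their clusters differ between libraries: 1333 of the 1797 sgVC cells lay in cluster 2, and most sgCPT1A cells in clusters 1, 3, 5 and 9. Within the neutrophil-like subcluster best shared by the libraries, with 860 and 1067 cells, Il4ra stood at 193 and 191 CPM, while in the subcluster of 52 and 2010 cells it stood at 66.2 and 42.1. T-like cells stood at 50.9 and 49.1 CPM and tumour-like cells at 15.3 and 20.6.

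Il13ra1, the partner chain for IL-13 (chrX:36112110-36171259, plus strand), was found in most sgVC tumour-like cells at their median depth of 23607 UMIs. It had 7685 UMIs there, 81.5% of the sgVC total, at 63.2 CPM. A UMI was in 72.7% of these cells, and in 7.23% after thinning to the depth used for the Il33 shares. Neutrophil-like cells stood at 171 and 95.4 CPM, a log2 ratio of -0.84 (-0.99 to -0.69), and at 182 and 172 CPM within the well shared subcluster. Fibroblast-like cells stood at 104.5 and 73.5 CPM, a log2 ratio of -0.51, and monocyte/macrophage-like cells at 53.5 and 58.1, a log2 ratio of 0.12. T-like cells stood at 2.08 and 4.79 CPM. The neutrophil-like difference for both chains was thus small within the shared subcluster and larger over the class. Il4ra and Il13ra1 were found together in 57.8% and 59.7% of fibroblast-like cells, 23.5% and 19.6% of tumour-like cells, and 15.1% and 16.3% of monocyte/macrophage-like cells. In T-like cells they were together in 0.116% and 0.907%, where Il4ra and the common gamma chain gene Il2rg were together in 6.17% and 13.4%. Such shares rise with depth. In sgVC the median depth was 23607 UMIs in tumour-like and 5718 in monocyte/macrophage-like cells, and T-like cells had 2863 and 4918. After the same thinning, Il4ra was in 1.58% of sgVC tumour-like and 14.7% of sgVC monocyte/macrophage-like cells, and Il13ra1 in 7.23% and 5.26%. The shares of cells with both genes were not thinned, so they do not rank classes or libraries.

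**Figure D4:**
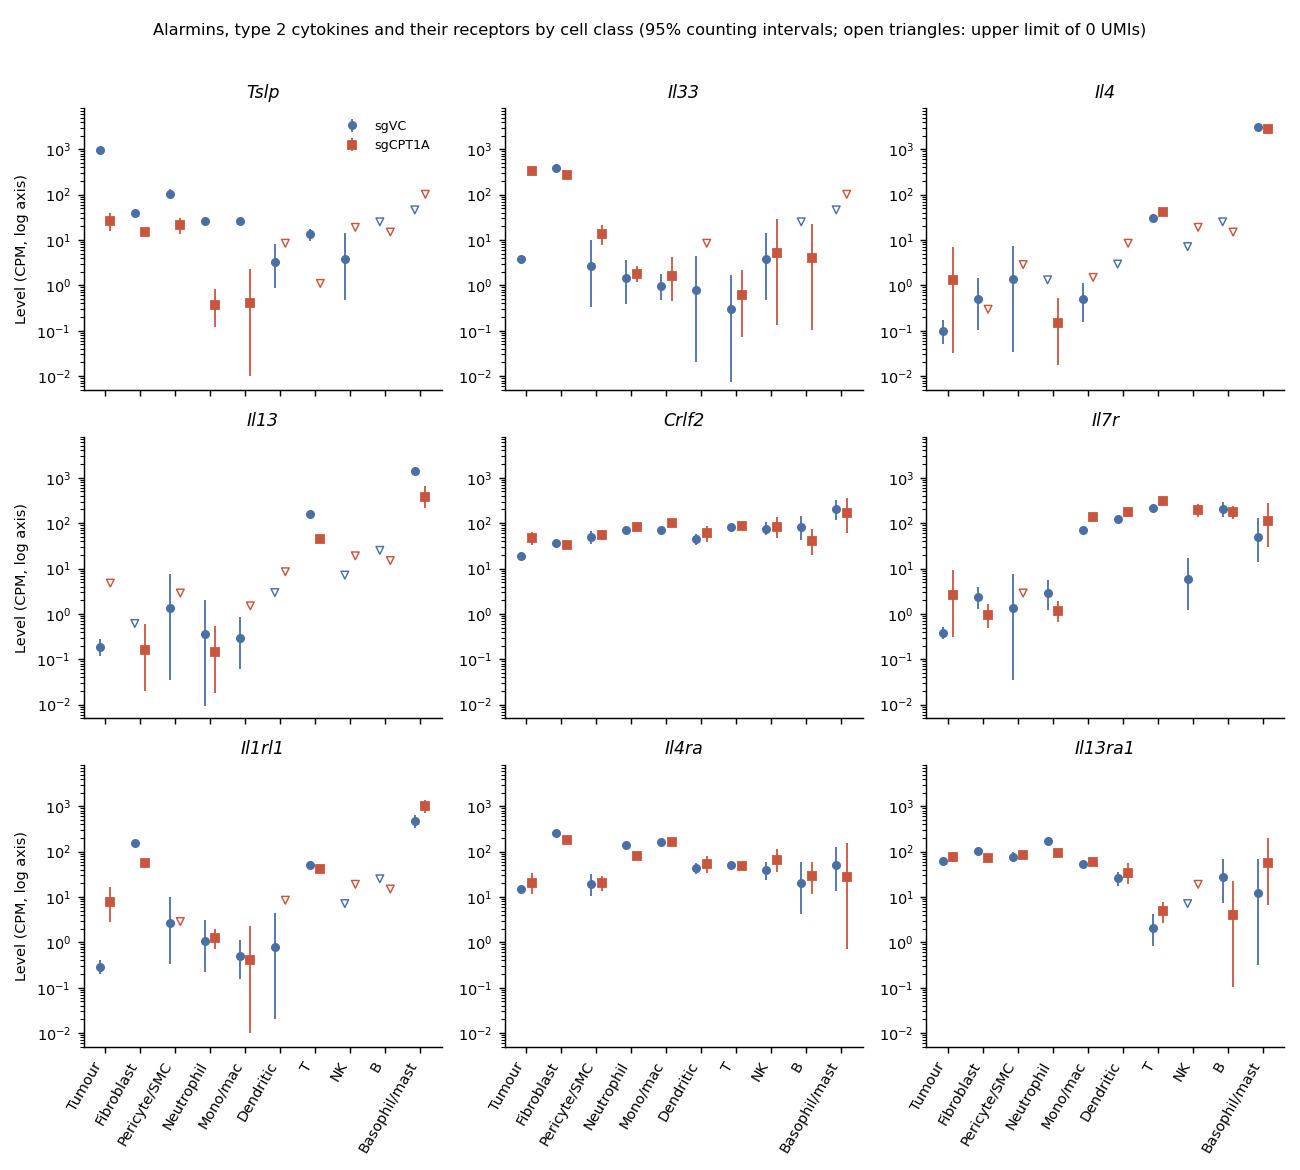
CPM of the 9 genes in the 10 cell classes of sgVC and sgCPT1A. Tslp is highest in sgVC tumour-like cells (979 CPM), Il33 in fibroblast-like cells (397 and 273), apart from the 46 sgCPT1A tumour-like cells (334), and Il4 in basophil or mast cell-like cells (3128 and 2815).

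Between the libraries, a gene was counted as higher or lower in a class where its CPM differed at least 2-fold and it had at least 20 UMIs over both libraries; classes needed 50 cells in each library. In fibroblast-like cells 3 of the 7 genes with enough UMIs were lower, Tslp, Il1rl1 and Il7r (14 and 12 UMIs, log2 ratio -1.27), where 4.97% of all 13236 genes were lower, and none was higher, where 8.05% were. In T-like cells 2 of 8 were lower, Tslp and Il13, beside 4.19% of 10158 genes, and 1 was higher, Il13ra1 (7 and 16 UMIs, log2 ratio 1.20, -0.16 to 2.73), beside 5.50%; this ratio changed sign under 4 alternatives, to between -3.02 and -1.49. In neutrophil-like cells 2 of 7 were lower, Tslp and Il7r (8 and 16 UMIs, log2 ratio -1.30), beside 18.8% of 9196 genes, and none was higher, beside 10.7%. In monocyte/macrophage-like cells 1 of 5 was lower, Tslp, beside 10.7% of 11313 genes, and in pericyte or smooth muscle-like cells 1 of 4, again Tslp, beside 8.43% of 8714. No gene was higher in those classes, where 7.01% and 10.9% of all genes were. The genes were chosen with these contrasts known, so nothing is read from the counts. The median log2 ratio of all genes lay between -0.09 and 0.05 in 4 of the classes and at -0.30 in neutrophil-like cells.

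**Figure D5:**
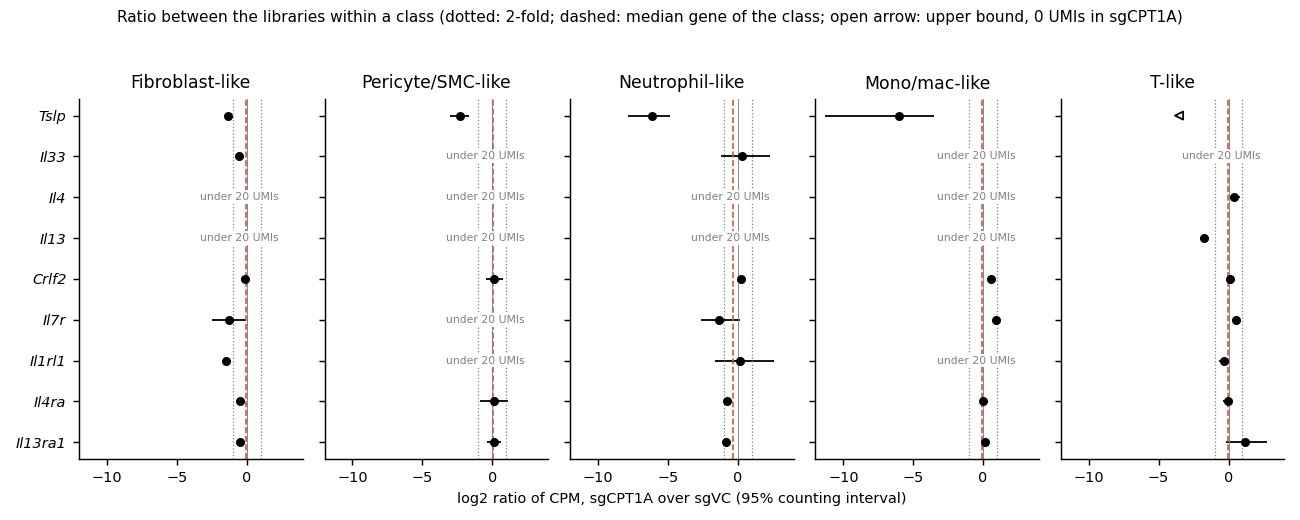
Log2 ratio of CPM, sgCPT1A over sgVC, with 95% counting intervals for the 5 classes that reach 50 cells in both libraries. Dotted lines mark 2-fold and the dashed line the median gene; the lowest values are those of Tslp in neutrophil-like (-6.15) and monocyte/macrophage-like cells (-6.01), and the open arrow marks an upper bound for T-like Tslp with 0 sgCPT1A UMIs.

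Other genes of the pathway were read from lists of known members, by the same rule. Of 9 type 2 cytokine genes 7 had enough UMIs in T-like cells, where 4 were lower in sgCPT1A (Il13, Il5, Il3 and Csf2) and none was higher, beside 4.19% and 5.50% of all genes, with a median log2 ratio of -1.62 against -0.04 for all genes. Csf2, the growth factor GM-CSF, stood at 316 and 103 CPM, a log2 ratio of -1.62. Of the type 2 lymphocyte genes 9 were measured in T-like cells, 1 was higher (the transcription factor Irf4, 33.6 and 72.2 CPM) and none lower, with the costimulator Icos at 412 CPM in both libraries. The other 3 measured cytokine genes, Il4 with a log2 ratio of 0.42 among them, did not pass. The 8 neutrophil markers stood at a sum of 312 and 2385 CPM in the same T-like cells, and their part in these values was not tested.

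Of 20 macrophage genes that IL-4 and IL-13 are known to induce, 19 were measured in monocyte/macrophage-like cells. There 8 were lower in sgCPT1A (Retnla, Mrc1, Mgl2, Ccl17, Ccl22, Ccl24, Cdh1 and Rnase2a) and 2 higher (Cd209a and Il4i1), beside 10.7% and 7.01% of all genes of the class, with a median log2 ratio of -0.82 against -0.09. The eosinophil attractant Ccl24 stood at 751 and 100.4 CPM (-2.90 on the log2 scale) and Ccl17, a ligand of CCR4, at 93.3 and 6.91 CPM (-3.76). Arginase, Arg1, went the other way by less than 2-fold, at 1696 and 3009 CPM, a log2 ratio of 0.83. The class differed in subclusters between the libraries, as given for Il7r, and the part of that shift in these ratios was not tested. Of 9 measured genes of TSLP-conditioned dendritic cells, 3 were lower in this class (Ccl17, Ccl22 and Il6) and none higher, beside the same shares; Ccl17 and Ccl22 are on both lists. In dendritic-like cells, 134 and 38, Ccl22 stood at 924 and 338 CPM and Ccr7, the lymph node homing receptor, at 774 and 752.

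In fibroblast-like cells 13 stromal genes related to IL-13 and IL-33 were measured, of which 1 was higher in sgCPT1A and 2 lower, beside 8.05% and 4.97% of all genes, with a median log2 ratio of -0.22 against -0.02. The eotaxin Ccl11 stood at 1255 and 469 CPM (-1.42) and the lymphoid growth factor Il7 was the other lower gene, while Cxcl12 stood at 1106 and 2215 CPM (1.00). Ccl2, the monocyte attractant, stood at 3081 and 1890 CPM. In the other stromal class the same list went the other way. In pericyte or smooth muscle-like cells 6 of 11 measured genes were higher (Ccl11, Postn, Ccl7, Ccl8, Ccl19 and Cxcl12) and 1 lower (Cd34), beside 10.9% and 8.43% of all genes, with a median log2 ratio of 1.52 against 0.05. There Ccl7, a monocyte attractant, stood at 9.50 and 153.8 CPM and Cd34 at 145 and 35.1 CPM, in 51 and 73 cells whose endothelial markers differed as given for Tslp. Fibroblast markers stood in this class at a median of 1.70% of their fibroblast-like level in sgVC and 7.21% in sgCPT1A. The part of fibroblast transcripts in these values was not tested. Of the IL-4 and IL-13 receptor and signalling list, 0 of 14 measured genes were called in neutrophil-like and in monocyte/macrophage-like cells, 1 of 14 in T-like cells (Il13ra1, higher, with the sign changes given above), 1 of 15 in fibroblast-like cells (Il2rg, higher) and 2 of 13 in pericyte or smooth muscle-like cells (Stat5b and Cish, lower). The shares of all genes called in each class, given above, are those to read these counts against. Of the alarmin receptor and adaptor list, Il1rap was higher in monocyte/macrophage-like cells (11.1 and 25.2 CPM) and in T-like cells (5.65 and 14.98 CPM), and stood at 143 and 207 CPM in neutrophil-like cells. The neutrophil markers that moved with T-like cells, given above with Il13, stand beside that T-like value, and their part in it was not tested. In monocyte/macrophage-like cells neutrophil markers stood at a median of 1.16% and 4.16% of their neutrophil-like level. The part of neutrophil transcripts in that Il1rap value was not tested either. Of the alarmin ligands Tslp alone was called in the 5 classes, and Hmgb1 stood at 459 and 432 CPM in fibroblast-like cells.

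Genes whose level followed each gene most closely over the 20 points formed by 10 classes in 2 libraries were named by Pearson's r on log2(CPM + 1). The points share libraries and depth, so r is a description. Tslp lay nearest to Hoxa5 (r = 0.95), Nptx1 (0.93) and Anln (0.91), Il33 to Fxyd6 (0.95), Boc and Efs (0.94), and Il7r to Gpr183 and Gna15 (0.93). Il4 lay nearest to Cyp11a1 and Il13, both at 0.97, and Il13 to Il4 and then Cyp11a1, at 0.91. Within the 4037 deep sgVC tumour-like cells no gene came near such values: Spp1 stood highest with Tslp at 0.38, then Igfbp4 at 0.36 and Mgp at 0.33, and Fau lowest at -0.24. Within fibroblast-like cells, 283 and 406 after thinning, Il33 lay nearest to the complement gene C3 (0.49 and 0.50) and Serpina3n (0.42 and 0.48). The lowest values were those of Ptprn (-0.37) in sgVC and Lrrc15, a gene of matrix-making fibroblasts (-0.36), in sgCPT1A, and Lrrc15 stood at -0.35 in sgVC. Other near genes differed, with Cxcl12 (0.44) the second nearest in sgVC and Mt2 (0.42) and Lbp (0.41) following in sgCPT1A.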

How the data were processed

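Gene by barcode UMI counts from 10x 3′ libraries were read as the authors deposited them, with no normalization; Cell Ranger 7.1.0 is named per the file headers, Seurat 4.1.0 and build GRCm38 per the submitters' processing notes. Cells were kept from 200 detected genes upward if mitochondrial counts did not pass 20%, and doublets were called with Scrublet in scanpy 1.11.5. Both libraries were clustered together (10000 counts per cell, 2000 variable genes without the genes reported here, 30 components, 15 neighbours, Leiden resolution 1, and 0.5 for subclusters, leidenalg 0.10.2). A class was named only where at least 3 markers stood at least 2-fold higher in the cluster and were in at least 10% of its cells, and so may differ from the study's own names. Counts were summed per class and library. Intervals are exact Poisson for levels, Clopper-Pearson for shares and conditional binomial for ratios (scipy 1.17.1), at 95%; a level of 0 was given the limit of 3 counts and a share of 0 its exact upper bound. With 1 library per group there is no test, and the library totals of 155948212 and 35557125 UMIs set the precision. All 9 genes are named in every class; of each pathway list and class the text may name the 2 highest genes and the 2 with the largest ratio (3 highest in small classes), and not all of these are named; further called genes in the text were picked with their values in view. The genes and lists were chosen with earlier results of these data known. Only the intervals of the ratios were tested on simulated data. Those were Poisson counts, the model the intervals assume, with no variation between replicate libraries. Clustering, class naming and thinning were not tested in this way.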

Additional observations from a re-analysis of the deposited data

How the results depend on the processing

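Of 514 values recomputed under alternatives, 419 were filed as within the counting interval of the reported value and 89 as outside it. The other 6 were filed as changed in sign, a label given only to ratios called at 2-fold. Sign changes of smaller ratios therefore stand among the 419 and the 89. Of the 30 log2 ratios, 18 kept their sign under all alternatives that gave a finite ratio; 3 of the other 12 were called at 2-fold, and the rest lay under 2-fold and crossed 0, among them Crlf2 (to -0.06) and Il4ra (to 0.36) in T-like cells and Il33 in neutrophil-like cells (to -1.35). Of the 9 finite ratios called at 2-fold, 5 stayed called under every alternative that gave a finite ratio. These were Il13 in T-like cells (-1.95 to -1.08), Il1rl1 in fibroblast-like cells (-1.56 to -1.11) and Tslp in pericyte or smooth muscle-like (-2.38 to -1.53), neutrophil-like (-7.65 to -1.41) and monocyte/macrophage-like cells (-7.44 to -3.02). No ratio was formed where a level was 0. The Tslp ratio was therefore finite under 12 of 13 alternatives in pericyte or smooth muscle-like and 6 in monocyte/macrophage-like cells. In pericyte or smooth muscle-like cells the missing one was free RNA subtraction, put at 17.1% of sgVC and 2.69% of sgCPT1A counts. That call is thus not firm. Tslp in fibroblast-like cells (-1.37) was -1.71 with at least 500 genes per cell, -2.97 with doublets kept, -2.15 with classes from each cell's own markers, and 0.39 over subclusters of at least 20 cells in each library; its sgVC level of 38.8 CPM was then 49.1, 117.6 and 65.8 CPM, 32.3 with cells weighted equally and 0 with free RNA subtracted. Il33 in the same class (-0.54) was -0.31 with doublets kept, -0.63 with equal weights and -0.77 over subclusters of at least 20 cells, and its sgVC level was 338.8, 374.0 (own markers), 373.2 (equal weights) and 423.7 CPM (free RNA subtracted). Tslp in sgVC tumour-like cells was 987.3 CPM with doublets kept, 1049 with equal weights and 989.1 without subclusters led by other markers. With classes from own markers, basophil or mast cell-like cells held 31.4% of the sgVC Il4 and 8.21% of the Il13 UMIs, the Il7r log2 ratio in neutrophil-like cells was 0.95 and Il4ra there -0.48 (-0.46 under median ratio scaling). Il7r in T-like cells (0.55) was 1.24 with doublets kept and 0.33 with equal weights. Il1rl1 in T-like cells (-0.35) was 0.13 with at most 10% mitochondrial counts, 0.30 with doublets kept and -0.011 with each library clustered alone. Il4ra in monocyte/macrophage-like cells was 0.41 with doublets kept. Il13ra1 in T-like cells (1.20) was -2.40 with doublets kept, -3.02 with own markers, -1.84 without subclusters led by other markers and -1.49 over subclusters of at least 20 cells. The alternatives without some subclusters were chosen after seeing the data; the cause of these shifts was not tested. No paired analysis was possible because each group has 1 library. The sgCPT1A depth and its 46 tumour-like cells limit statements on tumour-like cells.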

Other observations

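Tumour-like cells of the Krt19-high subcluster, which held Il33 but no Tslp, also carried Areg, an epidermal growth factor family ligand tied to type 2 immunity, at 2922 CPM in the 12 cells of sgVC and 1350 CPM in the 27 of sgCPT1A. Gata3, which is also a factor of luminal mammary epithelium, stood there at 391 and 379 CPM. Areg was not confined to that subcluster: the sgVC tumour-like class had 17905 Areg UMIs, at 147 CPM, with a UMI in 52.3% of cells. Areg was lower in sgCPT1A at 17.0 and 2.26 CPM in fibroblast-like, 29.5 and 8.69 in neutrophil-like and 33.0 and 9.76 in monocyte/macrophage-like cells. Tumour transcripts were found in these sgVC classes, as given for Tslp, and their part in these values was not tested. The ILC2-like cells held Areg at 945 CPM in sgVC (57 UMIs) and had no Areg UMI in sgCPT1A, while Gata3 stood at 729 and 853 CPM. Both genes are among the markers that named this subcluster, over both libraries together, so their levels are no check of the name. For the sgCPT1A cells the Areg part of that naming is not borne out.

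Basophil or mast cell-like cells carried the chemokine genes Ccl3, at 17131 and 12281 CPM, and Ccl4, with 3652 and 743 UMIs. The mast cell protease Cma1 had 342 UMIs in sgVC and 412 in sgCPT1A, whose class held 4 cells richer in mast cell markers against 3 in sgVC. These values rest on 35 and 12 cells.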
